A study of Mus musculus with 6 samples.

Results

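The genes described here encode CD4, the 4 signalling chains that travel with the T cell receptor (Cd3e, Cd3d, Cd3g and Cd247) and the 4 proteins that act first when the receptor binds its ligand (Lck, Fyn, Zap70 and Lat). They were chosen by their gene symbols, and all 9 were found among the 54532 genes of the deposited tables and among the 15138 genes that were tested. The libraries were made from CD4+ T cells of the spleen of wild type C57BL/6J mice with colitis. Colitis was induced in both groups with dextran sulfate sodium (DSS), a polysaccharide given in the drinking water that injures the lining of the colon. The 3 Akk libraries came from mice that also received Akkermansia muciniphila, a gut bacterium that feeds on mucus, every day, and the 3 Ctrl libraries came from mice that received PBS (phosphate-buffered saline). Neither mice without DSS nor mice without daily treatment are among the groups, and the sources used here give no sex, age, dose, day of sampling or method of cell isolation. The labels put all 6 libraries in 1 batch.

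CD4 is the coreceptor of helper T cells. It binds MHC class II molecules on the presenting cell and carries the kinase LCK to the receptor, where LCK phosphorylates the tyrosine motifs in the tails of the CD3 chains and of the zeta chain, the product of Cd247. The kinase ZAP70 docks on these phosphorylated tails and phosphorylates the membrane adaptor LAT, on which the downstream enzymes assemble, while FYN, a relative of LCK, shares part of LCK's work.

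With Akkermansia, 3 of these 9 genes rose and none fell by the edgeR quasi-likelihood test (adjusted p under 0.05 over all 15138 genes). Lat was the 1 gene lower at an unadjusted p under 0.05, and DESeq2 and limma-voom also called 0 lower. The 3 that rose were Cd4, Lck and Cd3e, at 1.28-fold, 1.25-fold and 1.18-fold of the Ctrl level. Lat had the next largest shift, at 0.86-fold, and did not pass. Cd3g, at 1.13-fold, followed it, and Cd3d, Cd247, Zap70 and Fyn had fold changes between 0.98 and 1.07, all without passing. Over all genes tested 15.6% passed, 7.32% higher and 8.28% lower with Akkermansia. Among the 1098 genes with a mean of at least 200 CPM (counts scaled to the size of the library), the range in which all 9 genes lie, 18.6% were higher and 12.8% lower. The median log2 fold change of the 9 genes was 0.10, against -0.01 for all tested genes. The median of genes of like abundance was not computed.

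Promoters of the CD3 genes, Lck and Lat are shown because the 3 CD3 genes lie next to one another on chromosome 9 yet differed in whether they passed, because Lck, which rose, is listed with 2 start sites, and because Lat was the gene with all Akk values below the Ctrl values. The windows run from 250 bases before to 50 bases after a start site in RefSeq (GRCm38.p6, an older build than the GRCm39 of the counts), and they matched 8 of the 9 genes, all but Cd4, with 11 windows in all. Capitals mark AGGAAG, a core recognised by ETS family factors, and TGTGGT, a core recognised by RUNX factors, each searched on both strands (CTTCCT and ACCACA are their reverse complements). The 2 motifs do not overlap each other in these windows. The 3 CD3 windows are chr9:45009562-45009861 (minus strand) for Cd3e, chr9:44981536-44981835 (plus strand) for Cd3d and chr9:44980382-44980681 (minus strand) for Cd3g. The Lck windows are chr4:129573592-129573891 for the upstream start and chr4:129558323-129558622 for the downstream start, and the Lat window is chr7:126369519-126369818, all on the minus strand.
Cd3e: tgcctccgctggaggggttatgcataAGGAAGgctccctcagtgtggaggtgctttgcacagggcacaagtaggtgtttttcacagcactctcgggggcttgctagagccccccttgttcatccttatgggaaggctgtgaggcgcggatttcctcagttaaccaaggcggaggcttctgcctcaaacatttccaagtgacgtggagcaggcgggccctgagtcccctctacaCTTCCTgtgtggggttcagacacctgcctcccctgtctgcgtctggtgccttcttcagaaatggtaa
Cd3d: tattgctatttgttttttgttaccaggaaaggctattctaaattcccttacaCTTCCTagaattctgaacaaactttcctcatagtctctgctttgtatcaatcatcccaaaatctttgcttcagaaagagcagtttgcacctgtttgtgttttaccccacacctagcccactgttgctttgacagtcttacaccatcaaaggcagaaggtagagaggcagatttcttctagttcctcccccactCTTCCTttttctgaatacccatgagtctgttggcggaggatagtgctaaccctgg
Cd3g: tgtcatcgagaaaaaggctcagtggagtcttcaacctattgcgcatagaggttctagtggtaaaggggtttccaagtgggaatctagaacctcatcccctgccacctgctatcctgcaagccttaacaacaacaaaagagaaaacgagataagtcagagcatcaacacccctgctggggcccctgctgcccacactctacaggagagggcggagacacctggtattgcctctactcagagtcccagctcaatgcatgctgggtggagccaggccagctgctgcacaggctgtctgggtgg
Lck, upstream start: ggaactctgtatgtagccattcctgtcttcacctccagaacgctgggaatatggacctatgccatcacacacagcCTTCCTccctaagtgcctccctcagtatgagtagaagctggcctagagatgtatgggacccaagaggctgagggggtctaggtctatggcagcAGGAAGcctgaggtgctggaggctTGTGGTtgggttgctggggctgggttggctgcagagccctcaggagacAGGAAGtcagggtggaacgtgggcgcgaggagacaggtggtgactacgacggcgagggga
Lck, downstream start: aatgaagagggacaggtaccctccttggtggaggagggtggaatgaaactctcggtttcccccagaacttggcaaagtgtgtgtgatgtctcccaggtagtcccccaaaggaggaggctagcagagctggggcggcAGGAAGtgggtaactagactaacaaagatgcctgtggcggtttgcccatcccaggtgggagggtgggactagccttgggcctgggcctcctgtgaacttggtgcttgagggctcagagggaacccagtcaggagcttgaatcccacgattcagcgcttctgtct
Lat: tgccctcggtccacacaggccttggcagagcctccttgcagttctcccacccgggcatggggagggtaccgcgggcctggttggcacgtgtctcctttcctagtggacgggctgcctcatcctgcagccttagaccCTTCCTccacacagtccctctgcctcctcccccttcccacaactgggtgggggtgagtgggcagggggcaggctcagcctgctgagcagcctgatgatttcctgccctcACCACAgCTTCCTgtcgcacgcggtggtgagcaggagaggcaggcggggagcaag

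AGGAAG or its complement was in 8 of the 11 windows of these genes and in 35.4% of all 32851 windows of the same length. It was found 2 times each in the windows of Cd3e and Cd3d, 3 times in the upstream and 1 time in the downstream window of Lck, and 2 times in that of Lat. The windows without it were those of Cd3g and Fyn and 1 of the 3 Zap70 windows. TGTGGT or its complement was in 3 of the 11 windows, the upstream window of Lck, 1 window of Zap70 and that of Lat, and in 16.8% of all windows. The upstream window of Lck, which rose, holds both motifs. So do the window of Lat and 1 window of Zap70, genes that did not pass. The window of Cd3e, which rose, holds 1 of them, and those of Cd3g and Fyn, which did not pass, hold neither. Whether the motifs go with the response was not tested.

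CPM were computed on library sizes after TMM scaling (trimmed mean of M values). The 6 libraries held 15032257 to 16677923 counts, and the 9 genes had 3833 to 14760 counts each in every library. Counting error alone, taken from the mean count of a gene in each group, gives a coefficient of variation of 0.828% to 1.57%. The descriptions of the libraries name CD4 for both libraries numbered 1, but CD5 and CD6 for those numbered 2 and 3, whereas the cell type entry names CD4 for all. Cd4 was among the abundant transcripts in all 6 libraries, and Cd8a, a chain of the CD8 coreceptor, was at 1.10% to 1.59% of the Cd4 level in the Ctrl libraries and at 3.78% to 6.75% in the Akk libraries, on the FPKM scale, which divides by gene length. In bulk RNA, fewer cells of a type and less RNA per cell cannot be told apart.

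**Figure D1:**
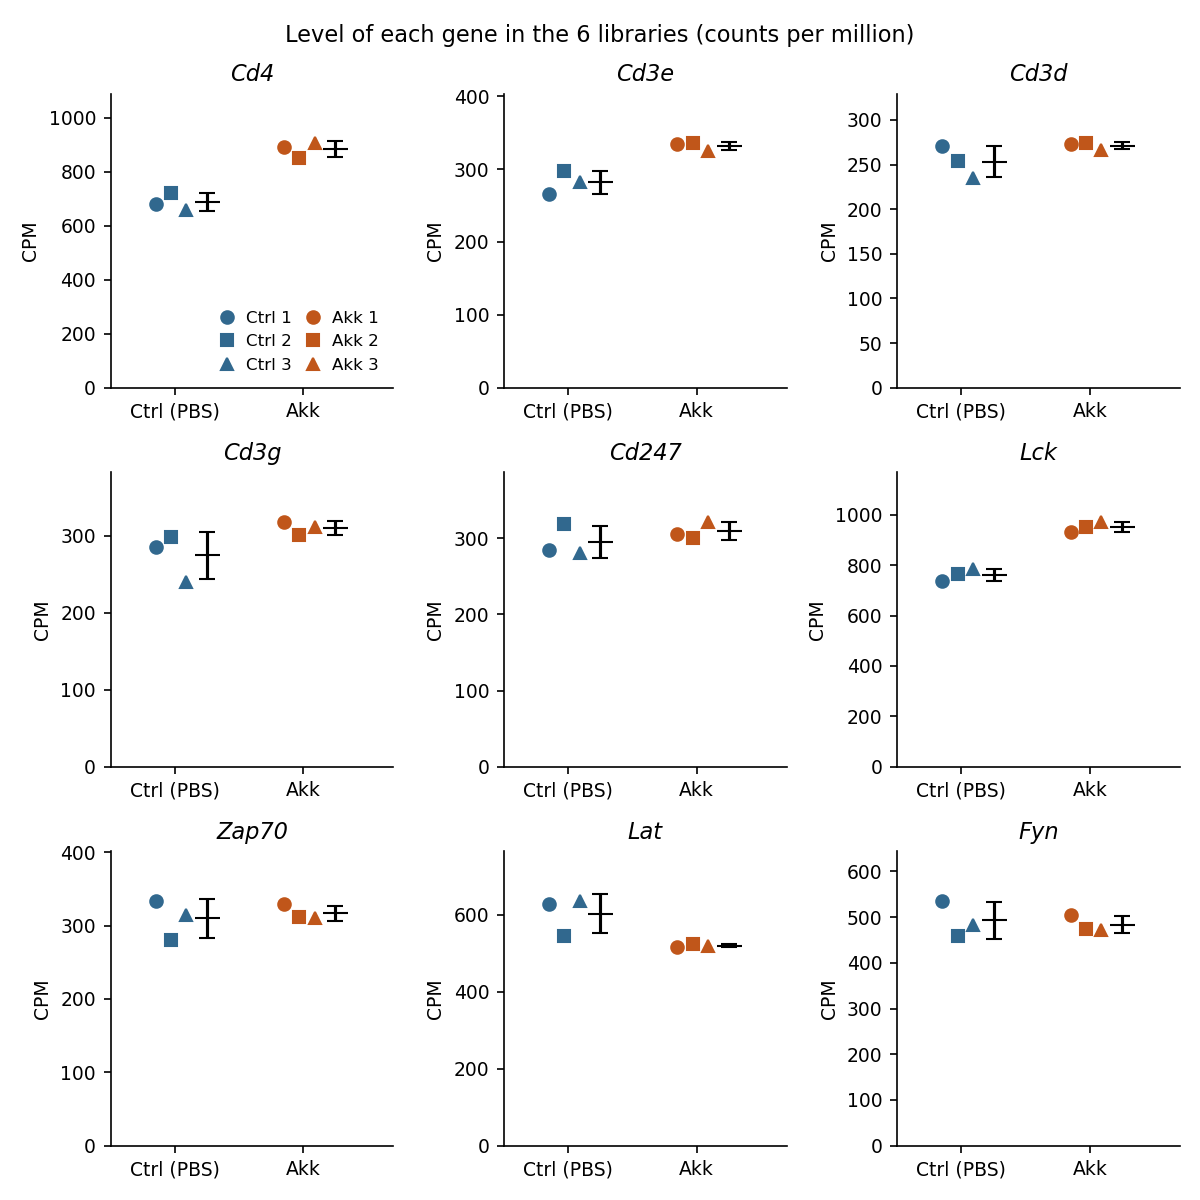
CPM of each of the 9 genes in the 6 libraries (vertical axes from 0, a different range in each panel), with Ctrl libraries in blue and Akk libraries in orange; symbols give the library number, and the black marks the mean and SD of 3 libraries. The groups part for Cd4, Cd3e, Cd3g, Lck and Lat, and for Lat the Akk libraries, between 515 and 524 CPM, are below all Ctrl libraries.

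Cd4 (ENSMUSG00000023274), the coreceptor gene, had 682, 723 and 659.5 CPM in Ctrl 1, 2 and 3 and 891, 851 and 909 CPM in Akk 1, 2 and 3. All 3 Akk libraries were above all Ctrl libraries, and the gap between the groups, from 723 to 851 CPM, was larger than the range within either group. The log2 fold change was 0.36 ± 0.07 (SE; edgeR, n = 3 and 3, adjusted p = 0.00428), a 1.28-fold rise with a 95% interval of 1.16 to 1.42, not adjusted for the number of genes. The call held in each fit that left out 1 library (adjusted p from 0.00198 to 0.0353). The CD5 and CD6 named in the descriptions did not go with 1 order of Cd4: Ctrl 2 (CD5) was highest and Ctrl 3 (CD6) lowest among the Ctrl libraries, and Akk 3 (CD6) was highest and Akk 2 (CD5) lowest among the Akk libraries.

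Lck (ENSMUSG00000000409), the Src family kinase bound to the tails of CD4 and CD8, was the most abundant of the 9 genes in CPM and per gene length. It had 735, 763 and 783 CPM in Ctrl 1, 2 and 3 and 933, 953 and 973 CPM in Akk 1, 2 and 3. The groups did not overlap, and the coefficient of variation (CV) within them was 3.17% for Ctrl and 2.08% for Akk. Lck rose by 0.33 ± 0.07 (log2, SE; edgeR adjusted p = 0.00606), 1.25-fold with a 95% interval of 1.13 to 1.38, and kept its call without any 1 library (adjusted p from 0.00538 to 0.0459). Counts for a whole gene do not tell the transcripts of its 2 start sites apart.

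Fyn (ENSMUSG00000019843), the other Src family kinase of the receptor, had 536, 459 and 483 CPM in Ctrl 1, 2 and 3 and 504, 473 and 472 CPM in Akk 1, 2 and 3. All Akk libraries lay within the range of the Ctrl libraries. The log2 fold change was -0.03 ± 0.08 (edgeR adjusted p = 0.847), with a 95% interval of 0.88-fold to 1.10-fold, and its sign turned without Ctrl 1 (0.03). The 1.25-fold rise of Lck lies outside this interval, and the ratio of Fyn to Lck is given further on.

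Among the CD3 chains, Cd3e (ENSMUSG00000032093), whose product pairs with both the gamma and the delta chain, was the 1 that passed. Its values were 265, 298 and 282 CPM in Ctrl 1, 2 and 3 and 334, 336 and 325 CPM in Akk 1, 2 and 3, with no overlap between the groups. It rose by 0.24 ± 0.07 (log2, SE; edgeR adjusted p = 0.0329), 1.18-fold with a 95% interval of 1.06 to 1.30. The call was lost without Akk 1, Akk 2, Akk 3 or Ctrl 1 (adjusted p = 0.0993, 0.133, 0.0929 and 0.123), with log2 fold changes of 0.19 to 0.25 in these 4 fits. Rises over all genes tested dropped in the same 4 fits, from 1108 to between 519 and 679. The Cd3e call was also missed on log2(FPKM + 1) (limma adjusted p = 0.0503).

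Cd3g (ENSMUSG00000002033), the gamma chain gene, had 285, 299 and 239.6 CPM in Ctrl 1, 2 and 3 and 319, 301 and 311 CPM in Akk 1, 2 and 3. Ctrl 2 and Akk 2 nearly touched, and Ctrl 3 was the low library. The log2 fold change of 0.18 ± 0.08 did not pass (edgeR adjusted p = 0.172), and it was 0.09 without Ctrl 3. Cd3d (ENSMUSG00000032094), the delta chain gene, had 270.3, 254 and 235 CPM in Ctrl 1, 2 and 3 and 273, 275 and 266 CPM in Akk 1, 2 and 3, so that Ctrl 1 lay inside the Akk range. Its log2 fold change was 0.10 ± 0.07 (edgeR adjusted p = 0.377), with a 95% interval of 0.96-fold to 1.19-fold, which includes the 1.18-fold of Cd3e. Whether Cd3e differed from Cd3d and Cd3g in its response was not tested.

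Cd247 (ENSMUSG00000005763), the zeta chain gene, whose product carries more tyrosine motifs than any CD3 chain, had 285, 319 and 281 CPM in Ctrl 1, 2 and 3 and 306, 300.2 and 322 CPM in Akk 1, 2 and 3. The groups overlapped, with Ctrl 2 above Akk 1 and Akk 2. Its log2 fold change was 0.07 ± 0.07 (edgeR adjusted p = 0.574), with a 95% interval of 0.94-fold to 1.17-fold. In the GENCODE annotation (release M21) exons of Cd247 overlap an exon of Pou2f1 on the opposite strand and exons of Cd3e overlap Gm48719 on the opposite strand, and the strand setting of the counting is not given. Pou2f1 fell, at 84.8 CPM with Akkermansia and 104 CPM with PBS (log2 fold change -0.30, edgeR adjusted p = 0.0153). Gm48719 was at 8.96 and 9.31 CPM, and both were below the genes they overlap. Whether reads of Pou2f1 entered the Cd247 counts was not tested. On the same strand Cd247 overlaps Gm16565 (2.36 and 2.35 CPM), Lck overlaps Mir8119 (0.734 and 0.843 CPM) and Lat overlaps Mir7058 (0 CPM in both groups).

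Zap70 (ENSMUSG00000026117), the kinase that docks on the phosphorylated chains, had 334, 280.5 and 314 CPM in Ctrl 1, 2 and 3 and 329, 312 and 309.7 CPM in Akk 1, 2 and 3. The Akk libraries lay within the Ctrl range, and the log2 fold change was 0.03 ± 0.08 (edgeR adjusted p = 0.821), with a 95% interval of 0.91-fold to 1.15-fold. Its sign turned without Ctrl 2 (-0.03). The rises of Cd4 and Lck lie outside this interval; the differences from Zap70 were not tested.

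Lat (ENSMUSG00000030742), the membrane adaptor that ZAP70 phosphorylates, was the 1 gene of the set with all Akk libraries below all Ctrl libraries. It had 628, 543 and 636 CPM in Ctrl 1, 2 and 3 and 515, 524 and 518 CPM in Akk 1, 2 and 3. Ctrl 2 was close to the Akk libraries, and Ctrl 1 and Ctrl 3 were well above them. The log2 fold change was -0.22 ± 0.08, which did not pass (edgeR adjusted p = 0.0716). Without Ctrl 2 it passed as a fall (log2 fold change -0.28, adjusted p = 0.0104), and it also passed with no filter on low counts (-0.20, adjusted p = 0.0483).

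Of the 9 genes, 5 (Cd4, Lck, Cd3e, Cd3g and Lat) had CPM that did not overlap between the groups. That was so for 34.9% of all genes tested and for 56.2% of those with a mean of at least 200 CPM, so the share among the 9 genes is near that of genes of like abundance. The spread within a group was larger among the Ctrl libraries for all 9 genes, with a CV of 3.17% to 11.3% (median 7.13%) against 0.844% to 3.77% (median 2.83%) among the Akk libraries. This was not particular to the 9 genes. Over 16794 to 17305 genes, chi-square per gene between pairs of libraries was 13.2 to 17.8 in Ctrl and 4.25 to 5.77 in Akk. Within the Ctrl group the 9 genes did not share an order: Ctrl 2 was lowest for Zap70, Lat and Fyn and highest for Cd4, Cd3e, Cd3g and Cd247, while Ctrl 3 was lowest for Cd4, Cd3d, Cd3g and Cd247.

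**Figure D2:**
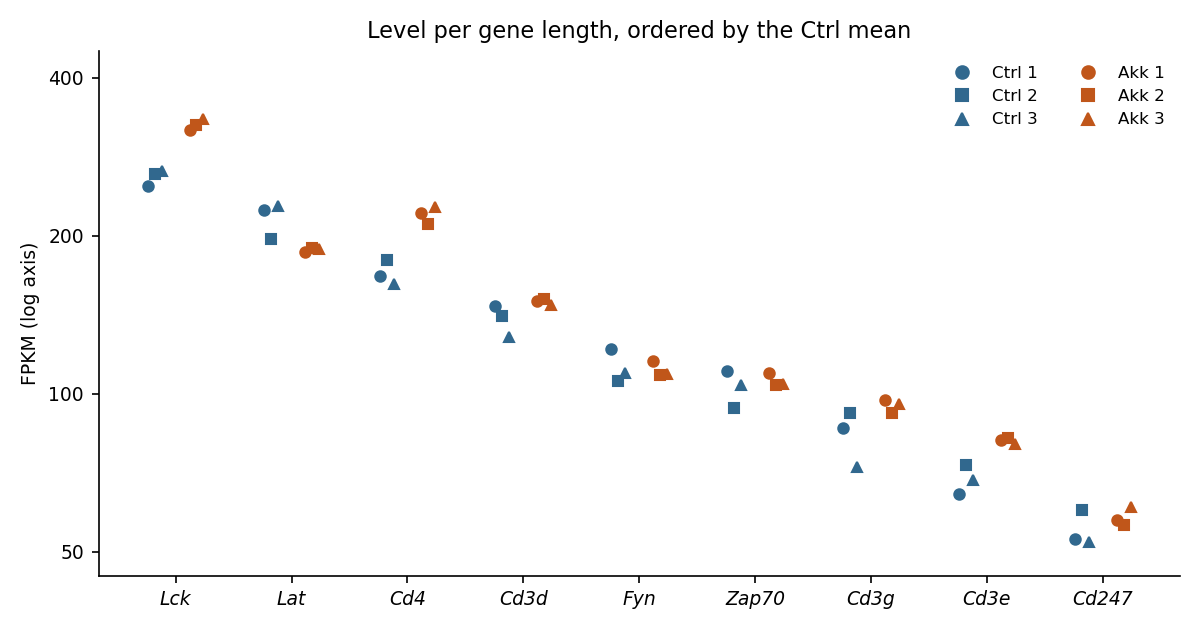
FPKM of each of the 9 genes (log axis) in the 3 Ctrl libraries (blue) and the 3 Akk libraries (orange), with genes ordered by their Ctrl mean. Lck was highest and Cd247 lowest in both groups, while Cd4 and Lat changed places.

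Per gene length (FPKM, the authors' values), Lck led in both groups, at 258 ± 8.94 with PBS and 326 ± 8.09 with Akkermansia (SD, n = 3), and Cd247 was last, at 55.1 ± 4.37 and 58.2 ± 2.36 FPKM. The 9 genes spanned 4.69-fold with PBS and 5.60-fold with Akkermansia. In the Ctrl libraries Lat (216 ± 16.9 FPKM) came next and then Cd4 (169.7 ± 9.13 FPKM), and in the Akk libraries Cd4 (219 ± 8.01 FPKM) came before Lat (188 ± 1.73 FPKM). In neither group did the Cd4 and Lat values overlap. Below them stood Cd3d, Fyn, Zap70, Cd3g, Cd3e and Cd247, in the same order in both groups. Fyn and Zap70 overlapped in both groups, and Cd3g and Cd3e overlapped in the Ctrl libraries alone, so their order within those pairs is not beyond the spread. Cd3d, at 139 ± 9.55 and 149.6 ± 1.75 FPKM, was above Cd3g and Cd3e in every library.

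**Figure D3:**
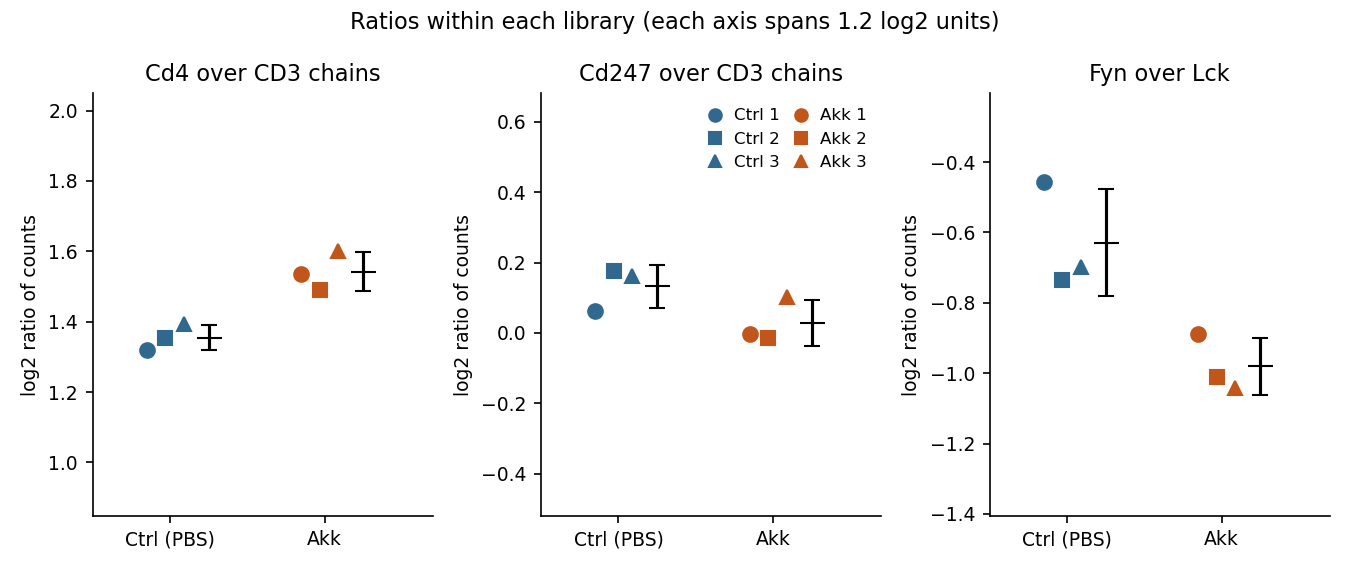
Log2 ratios of counts within each library for Cd4 over the geometric mean of Cd3e, Cd3d and Cd3g, for Cd247 over the same mean and for Fyn over Lck, with the mean and SD of 3 libraries in black. The axes span the same number of log2 units and do not start at 0. The groups part for Cd4 over the CD3 chains and for Fyn over Lck, and overlap for Cd247.

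Ratios between the genes of 1 library do not depend on how libraries are scaled. The log2 ratio of Cd4 to the geometric mean of the 3 CD3 chains was 1.32, 1.35 and 1.39 in Ctrl 1, 2 and 3 and 1.54, 1.49 and 1.60 in Akk 1, 2 and 3. Cd4 was thus higher relative to the CD3 chains in all 3 Akk libraries, by 0.19 on the log2 scale or 1.14-fold. The exact two-sided permutation test gave p = 0.1, the smallest p that 3 against 3 libraries allow, and 0.15 when adjusted over the 3 ratios tested. These 3 ratios were chosen with earlier results of these data known, which the adjustment does not take into account. The difference was 0.12 over Cd3e alone (exact permutation p = 0.2), 0.26 over Cd3d alone and 0.46 over Trac, the receptor alpha constant gene, so its size rests on the gene taken as reference.

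Fyn relative to Lck was -0.46, -0.73 and -0.70 (log2 ratio of counts) in Ctrl 1, 2 and 3 and -0.89, -1.01 and -1.04 in Akk 1, 2 and 3, lower in every Akk library. The mean difference was -0.35, or 0.78-fold (exact two-sided permutation p = 0.1, the smallest possible, adjusted 0.15). Cd247 relative to the CD3 chains was 0.06, 0.18 and 0.16 in Ctrl 1, 2 and 3 and -0.0041, -0.01 and 0.10 in Akk 1, 2 and 3. These groups overlapped, with a mean difference of -0.10 (exact permutation p = 0.2, adjusted 0.2). On the FPKM scale Lat was at 2.01 to 2.65 times the geometric mean of the CD3 chains in the Ctrl libraries and at 1.75 to 1.81 times in the Akk libraries, without overlap. Zap70 was at 0.959 to 1.21 times that mean in the Ctrl libraries and 0.994 to 1.03 times in the Akk libraries, Akk inside Ctrl.

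**Figure D4:**
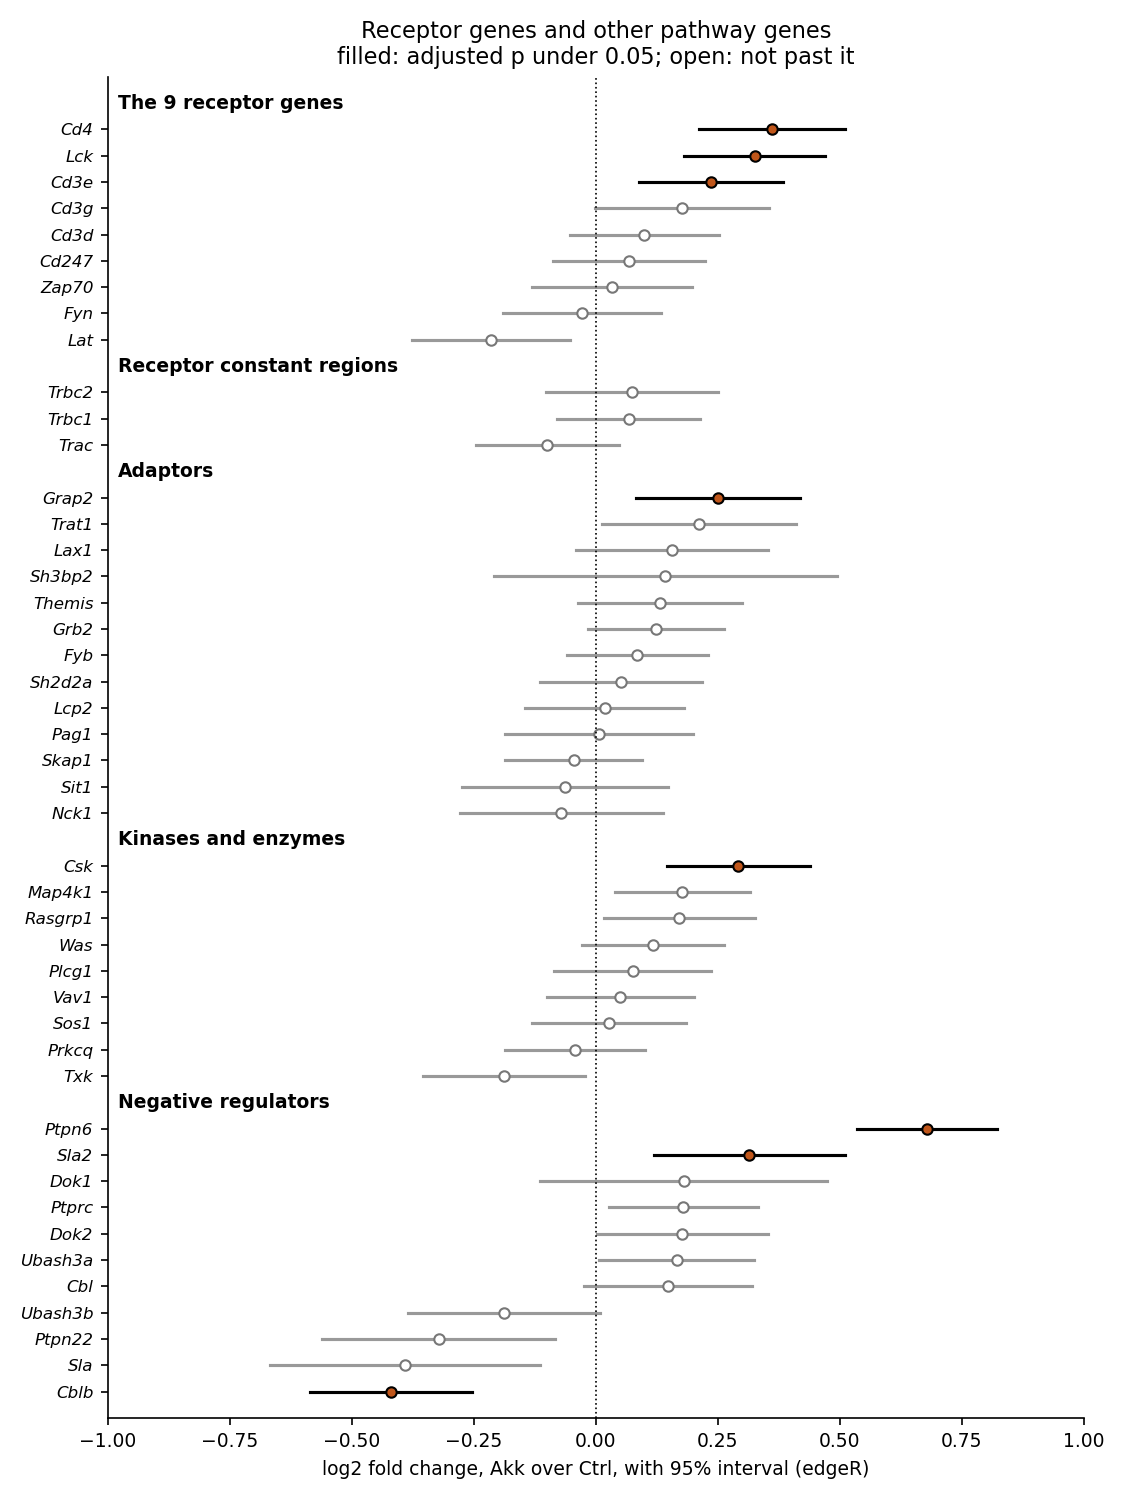
Log2 fold change of Akk over Ctrl (point) with its 95% interval (line, not adjusted for the number of genes) for the 9 genes and for other genes of the receptor pathway, grouped by role; 2 of the 38 other genes are not drawn. Filled points passed the test and open points did not. Cd4, Lck and Cd3e are the filled points of the first group, and Ptpn6 lies farthest to the right in the panel.

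Among 38 other genes of the proximal pathway, 6 rose (15.8%) and 1 fell (2.63%), and their median log2 fold change was 0.10. The shares were 7.32% and 8.28% over all genes tested. From a mean of 200 CPM, which some of the 38 genes do not reach, they were 18.6% and 12.8%. The share that rose thus lies between those 2 backgrounds. The constant genes of the receptor, which encode the constant parts of the alpha and beta chains, had 0 calls among 3 genes, also at an unadjusted p under 0.05. Trac, the alpha chain gene, was at 597 ± 24.6 CPM in Ctrl and 557 ± 18.3 CPM in Akk (SD, n = 3; log2 fold change -0.10, edgeR adjusted p = 0.358). Trbc1 and Trbc2, the beta chain genes, each had a log2 fold change of 0.07 (edgeR adjusted p = 0.557 and 0.596). Trbc1 and Trbc2 are near-identical, and their reads could have been shared between them.

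Of 13 adaptors 1 rose (7.69%, against 7.32% of all genes tested). It was Grap2, which links LAT to the adaptor SLP-76 (from 609 ± 58.3 to 724 ± 9.57 CPM, SD, n = 3, edgeR adjusted p = 0.0454). Lcp2, which encodes SLP-76, was at 336 ± 16.6 CPM in Ctrl and 340 ± 26.4 CPM in Akk (edgeR adjusted p = 0.907). Of 11 kinases and enzymes 3 rose (27.3%), beside 18.6% of all genes with a mean of at least 200 CPM. Among them was Csk, the kinase that holds LCK and FYN inactive, which rose by 0.29 ± 0.07 (log2, SE, edgeR adjusted p = 0.0125). Plcg1, which encodes phospholipase C-gamma, had a value of 0.08 ± 0.07 (edgeR adjusted p = 0.545). Csk was at 1.22-fold of its Ctrl level, beside 1.25-fold for Lck. The Grap2 call was lost without any of Akk 1, Akk 2, Akk 3, Ctrl 1 or Ctrl 2 (adjusted p = 0.0978, 0.148, 0.147, 0.153 and 0.0626). The Csk call was lost without Akk 2 (0.0808) or Akk 3 (0.0570).

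Of 11 negative regulators 2 rose (18.2%) and 1 fell (9.09%), against 7.32% and 8.28% of all genes tested. Ptpn6, the phosphatase SHP-1, which B cells and myeloid cells also express, rose from 193 ± 5.58 to 308 ± 12.1 CPM (SD, n = 3, edgeR adjusted p = 6.05e-05), and Sla2, an adaptor that takes part in the removal of receptor chains, rose from 33.2 ± 1.59 to 41.3 ± 2.60 CPM (0.0331). Cblb, a ubiquitin ligase that restrains receptor signals, fell from 235 ± 20.5 to 175 ± 7.17 CPM (edgeR adjusted p = 0.00326). Ptprc, the phosphatase CD45, which acts on LCK, was at 2762 ± 117 CPM in Ctrl and 3128 ± 80.8 CPM in Akk and did not pass (edgeR adjusted p = 0.108). Sla2 was lost without Akk 1, Akk 2, Akk 3 or Ctrl 1 (adjusted p = 0.139, 0.0939, 0.0638 and 0.123), while Ptpn6 and Cblb passed without any 1 library. The rises among the 38 genes numbered 1 without Akk 2 or without Akk 3 and 2 without Ctrl 1. Over all genes tested the rises also dropped, from 1108 to 519 without Akk 2, 535 without Akk 3 and 679 without Ctrl 1. The falls numbered 2 without Ctrl 2 or without Ctrl 3, and 3 with DESeq2, with no filter on low counts and with the replicate number as a block.

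Other genes of T cell identity were read beside Cd4. Of 15, 4 rose (26.7%) and 3 fell (20%), and the median of their log2 fold changes was 0.09. The shares were 7.32% and 8.28% over all genes tested, and 18.6% and 12.8% from a mean of 200 CPM. Zbtb7b, which encodes ThPOK, the factor that commits thymocytes to the CD4 lineage, rose from 148 ± 7.51 to 249.7 ± 8.52 CPM (SD, n = 3, log2 fold change 0.76, edgeR adjusted p = 4.10e-05). Thy1, Cd27 and Cd5 rose as well (0.54, 0.42 and 0.33, adjusted p = 0.000321, 0.00244 and 0.0155), and Cd28, Il7r and Icos fell (-0.87, -0.53 and -0.57, adjusted p = 0.00163, 0.0161 and 0.0181). Cd5 was lost without Akk 1, Akk 3 or Ctrl 1 (adjusted p = 0.0786, 0.0706 and 0.0577), Il7r without Akk 1 or Akk 2 (0.0630 and 0.0671) and Icos without Akk 2, Akk 3 or Ctrl 2 (0.0519, 0.0717 and 0.0605), so that Cd28 was the 1 fall without Akk 2. Cd5 and Cd6, named in the library descriptions, were at 386 ± 19.7 and 527 ± 13.3 CPM with PBS and at 486 ± 47.8 and 610 ± 59.6 CPM with Akkermansia, and Cd6 did not pass (edgeR adjusted p = 0.0909).

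Several proteins of this set have relatives that do like work in other cells: SYK for ZAP70, LAT2 for LAT, the Src family kinases LYN and BLK for LCK, and CD79A, CD79B, FCER1G and TYROBP, which carry the same tyrosine motif as the CD3 chains. Of 12 such genes, 4 rose (33.3%) and 0 fell by edgeR, against 7.32% and 8.28% of all genes tested. DESeq2, limma-voom and an unadjusted p under 0.05 also gave 0 lower. Syk rose from 45.5 ± 2.52 to 79.6 ± 7.32 CPM (SD, n = 3, edgeR adjusted p = 0.000114), and Cd79b, Cd79a and Blk, which belong to B cells, rose by 1.40, 1.12 and 1.13 (log2; adjusted p = 7.66e-05, 0.000322 and 0.000381). Lat2 was at 5.66 ± 0.763 CPM in Ctrl and 7.52 ± 0.804 CPM in Akk and did not pass (edgeR adjusted p = 0.172). On the FPKM scale Syk stood at 4.08% to 5.32% of Zap70 in the Ctrl libraries and at 6.96% to 8.81% in the Akk libraries, and Cd79b at 17.1% to 19.7% and 33.0% to 45.9% of Cd3e. Neither pair overlapped between the groups, whereas Fcer1g stood at 34.7% to 40.8% of Cd247 in the Ctrl libraries and at 28.5% to 39.0% in the Akk libraries, with overlap.

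**Figure D5:**
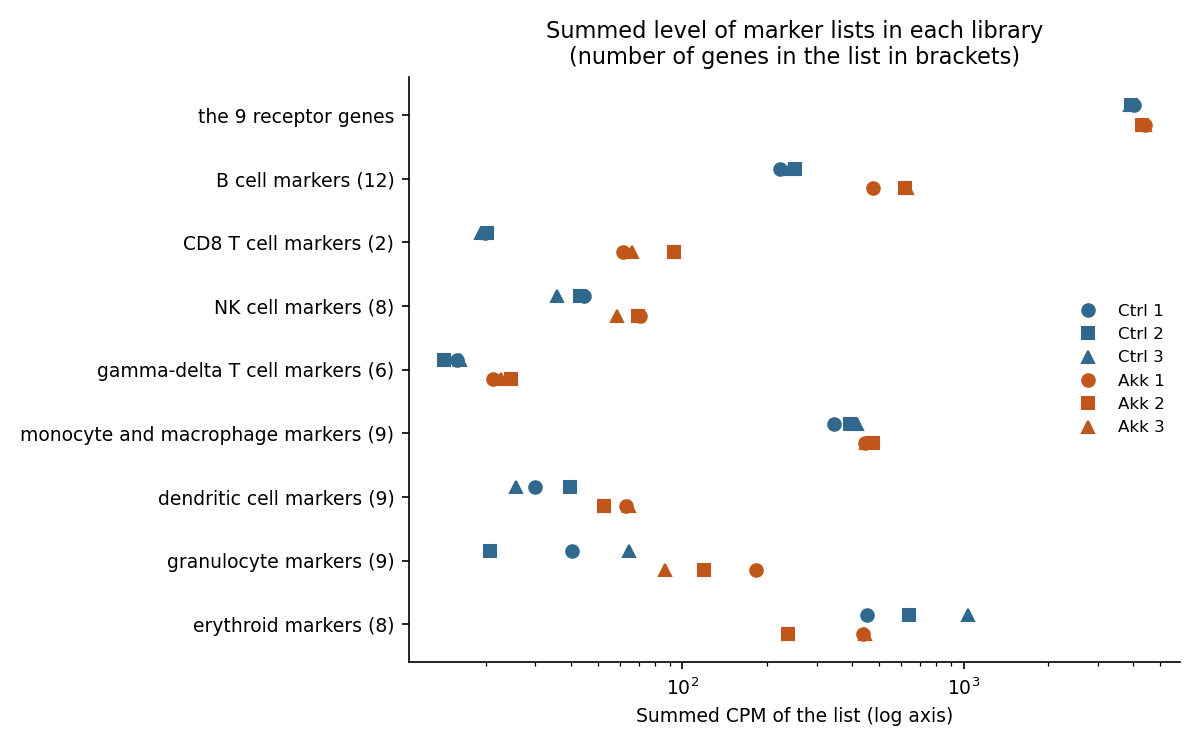
Summed CPM (log axis) of the 9 receptor genes and of marker lists of other cells in each Ctrl library (blue) and Akk library (orange). The 9 receptor genes sum to between 3914 and 4022 CPM in the Ctrl libraries and between 4325 and 4407 CPM in the Akk libraries. Every marker list also stands apart between the groups, the erythroid list lower in the Akk libraries and the others higher.

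Marker lists of other cells differed between the groups as well. Some of these cells use genes of the set: CD8 T cells express Lck and the CD3 chains, and NK cells express Lck and Cd247. Some splenic dendritic cells of the mouse carry CD4. All 12 B cell markers rose, and their sum was 222 to 252 CPM in the Ctrl libraries and 475 to 630.4 CPM in the Akk libraries. Both CD8 T cell markers rose, from a sum of 19.1 to 20.2 CPM to a sum of 61.3 to 93.4 CPM. NK cell markers rose in 6 of 8 cases (sums of 35.9 to 44.6 and of 58.3 to 70.4 CPM), dendritic cell markers in 3 of 8 tested (25.6 to 39.7 and 52.4 to 64.7 CPM), granulocyte markers in 2 of 7 tested (20.7 to 64.6 and 86.6 to 182 CPM), monocyte and macrophage markers in 2 of 9 (346 to 418 and 444 to 478 CPM) and gamma-delta T cell markers in 1 of 4 tested (14.2 to 16.1 and 21.2 to 24.5 CPM). Of 8 erythroid markers 1 fell (453 to 1033 and 237 to 447 CPM). Over all genes tested 7.32% were higher and 8.28% lower. No marker of the B cell, CD8 T cell, NK cell, dendritic or monocyte lists was at 0 in any library, while Trdv4 and Sox13 of the gamma-delta list and Elane and Mpo of the granulocyte list were at 0 in at least 1 library. The part of these cells in the rises of Cd4, Lck and Cd3e was not tested.

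The genes whose log2 CPM followed Cd4 most closely over the 6 libraries, among 8853 other genes with a mean of at least 10 CPM, were Zfp408 (Pearson r = 0.996, Spearman rho = 0.943), Zfp553 (0.996 and 1) and Ralgds (0.996 and 0.943). They were picked as the closest of many, so no test is given, and the group difference that Cd4 shows is part of the likeness. Zfp408 rose from 28.4 to 38.3 CPM (log2 fold change 0.43 ± 0.09, edgeR adjusted p = 0.00676).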

How the data were processed

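RNA was measured in 6 poly(A)-selected libraries, 3 per group, grouped by their titles. For each gene the authors deposited raw counts, and in a second table FPKM, scaled by them for gene length and library size. The reads were placed on GRCm39, per the submitters' processing notes. No aligner, counting program, annotation or strand setting is stated in the labels or file headers. The series' design text calls the libraries of a group biological replicates, and pooling of mice is not mentioned.

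The counts were tested in edgeR 4.0.16 (R 4.3.3) after filterByExpr (minimum count 10, minimum total 15) and TMM scaling, with a robust quasi-likelihood fit of group over all 6 libraries and a two-sided F test. P-values were adjusted by Benjamini-Hochberg over the 15138 genes tested, with a threshold of 0.05. Standard errors are the size of the log2 fold change divided by the square root of F. Ratios within a library were compared by exact permutation (scipy 1.17.1). Alternatives were DESeq2 1.42.0, limma 3.58.1 (voom, and its trend method on log2(FPKM + 1) and log2(FPKM + 0.1)), RLE and library total scaling, other filters, a block for the replicate number, and fits without each library in turn. The test was checked on simulated counts. Promoter windows came from RefSeq (GRCm38.p6) and exon overlaps from GENCODE M21.

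The genes, the lists and the ratios were chosen with earlier results of these data known. Besides the 9 genes, those named are the genes of each pathway list past the threshold, up to 4 in each direction by smallest p, 13 further genes whatever their p, the 3 genes most like Cd4, and abundant markers. Of these, 2 genes of the kinase list are counted but not reported by name here. All others, such as overlapping genes and markers at 0, were picked after their values were seen. Depth was 15032257 to 16677923 counts per library.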

Additional observations from a re-analysis of the deposited data

How the results depend on the processing

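Over 15 alternatives for each of the 9 genes, 125 of 135 fits kept the direction and the side of the threshold. The exceptions were Cd3e, which lost its call in 6 fits, Lat, which gained one in 2, and Zap70 and Fyn, each of which changed sign in 1. Leaving out 1 library at a time, the log2 fold change ranged from -0.033 to 0.083 for Zap70, from -0.076 to 0.029 for Fyn and from -0.039 to 0.070 for the adaptor gene Lcp2. Cd4 and Lck passed under all 15. Leaving out 1 library at a time gave 2 to 3 rises and 0 to 1 falls among the 9 genes, 1 to 6 rises and 1 to 2 falls among the 38 other pathway genes, and 3 to 4 rises and 1 to 3 falls among the 15 T cell identity genes; fewer libraries enter each of these fits. With no filter on low counts there was 1 fall among the 9 genes. DESeq2, no filter and the replicate block each gave 3 falls among the other pathway genes, where the main test gave 1, and the cause was not tested. The Cd4 ratio differed by 0.12, 0.26 and 0.46 over Cd3e, Cd3d and Trac alone. Scaling moved the median log2 fold change of all genes by less than 0.1.

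Libraries with the same number are not stated to be paired. Their deviations from the group means correlated at 0.08, 0.08 and 0.03 over genes, each higher than with any other number, a hint from the data alone. With the replicate block 1205 genes were higher and 1333 lower, against 1108 and 1253 without it. The exact sign-flip permutation test of the paired differences gave p = 0.25 for each of the 3 ratios, the smallest it can give. The block changed no call among the 9 genes. The counting error of the 9 genes was below the spread among Ctrl libraries. Among the Akk libraries the CV of Lat (0.844%) was below its counting error (1.12%). That of Cd3d (1.559%) was about equal to it (1.552%), and the other genes lay above theirs.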

Other observations

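For the other genes of the set the closest followers, found in the same way and named here after their values were seen, differed from those of Cd4. For Lck they were H2-Ab1, an MHC class II gene (Pearson r = 0.998 and Spearman rho = 1 over 6 libraries), Atp6v0a1, a proton pump subunit (0.997 and 1), and Ciita, the MHC class II transactivator (0.997 and 0.943). H2-Ab1 rose from 84.8 to 191 CPM and Ciita from 14.0 to 35.5 CPM with Akkermansia (edgeR adjusted p = 3.27e-05 and 4.02e-05), while Lck rose 1.25-fold. For Lat they were Slc2a1, the glucose transporter GLUT1 (0.997 and 0.943), Slc25a28, a mitochondrial iron carrier (0.995 and 0.886), and Dcp1b (0.994 and 0.943). Slc2a1 fell from 76.9 to 52.8 CPM (edgeR adjusted p = 0.0273), while Lat itself did not pass. These likenesses include the difference between the groups and carry no test.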
